A study of Homo sapiens with 18 samples.

Results

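The genes described are 48 ribosome biogenesis and RNA polymerase I genes, taken by symbol from the table of normalized counts that the authors deposited for 56269 genes. All 48 symbols had a row, and all 48 were among the 13686 genes with a mean value of at least 10 that were tested. By role they were 8 subunits and factors of RNA polymerase I, 4 nucleolar proteins with several functions, 3 core proteins of box C/D and 3 of box H/ACA small nucleolar ribonucleoproteins (snoRNPs), 16 factors of the small ribosomal subunit and 14 of the large one.

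The RNA came from IMR90 cells, a line of human lung fibroblasts, in 6 groups of 3 biological replicates each. Cells were kept for 6 h with PBS, with cNSF-HA or with fNSF-HA, the HA at 20 μg/ml, and were either collected then or exposed to 200 μM tert-butyl hydroperoxide (tBHP), an organic oxidant, for 1 h and collected 6 h after its start. cNSF-HA is the very long hyaluronan (HA) that naked mole-rat skin fibroblasts secrete, mixed with a heat-inactivated hyaluronidase, and fNSF-HA is the same HA partly cut by the active enzyme. All 6 groups were of this 1 line, with no genetic change named in the labels. Because the libraries without tBHP were collected at the end of the pre-incubation, tBHP and the later time of collection cannot be told apart. All 12 fibroblast marker genes checked had a mean of at least 10 over the libraries without tBHP and over those after it. None of 7 epithelial or 6 blood cell markers did in either state. Of 5 endothelial markers 1 did without tBHP and 2 after it. The summed level of the 5 was 1286 to 1459 normalized counts in the libraries without tBHP and 712.5 to 1101 in those after it, with no overlap. Of the defining ones CDH5 was at 0 in all 18 libraries and PECAM1 in the 9 without tBHP, and the part of this difference in the tBHP responses was not tested.

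Ribosome production starts in the nucleolus, where RNA polymerase I copies the repeated ribosomal DNA into 1 long precursor RNA. Box C/D snoRNPs guide the methylation of this precursor and box H/ACA snoRNPs its pseudouridylation, while a large set of assembly factors cuts and folds it and adds ribosomal proteins to form the small and the large subunit. The precursor and the ribosomal RNAs have no poly(A) tail and were not measured here, so every value below is the level of an mRNA that encodes one of the factors.

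The libraries held 20261103 to 26287660 reads on genes. Values are reads divided by a size factor of the library (normalized counts), and differences are log2 differences of (value + 1) fitted with limma over all 18 libraries, given with their standard error and with p-values adjusted over all 13686 genes. The p-values measure the spread among these libraries, and a gene was called at an adjusted p under 0.05. The median SD of a gene on the log2 scale was 0.063 to 0.070 in the groups without tBHP and 0.15 (PBS), 0.15 (cNSF-HA) and 0.22 (fNSF-HA) after it. After tBHP 1 library of each group stood apart from the other 2, namely PBS replicate 1, cNSF-HA replicate 3 and fNSF-HA replicate 2. The chi-square per degree of freedom between its reads and theirs was 15.6 and 18.5, 28.2 and 35.7, and 32.1 and 71.2, and between the other 2 libraries 4.22, 2.86 and 13.5. The kit did not keep the strand, so reads of an overlapping antisense gene would be counted together with a gene's own.

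After tBHP the mRNAs of most of these genes were lower, whatever the cells had been kept with. In PBS cells 31 of the 48 fell and 2 rose, where 26.9% of all genes tested fell and 24.2% rose, and the median log2 change was -0.34 against 0.0043 over all genes tested. With cNSF-HA 27 fell and 5 rose (26.8% and 24% of all genes tested), with a median of -0.31. With fNSF-HA 35 fell and 1 rose (22.7% and 19.2% of all genes tested), with a median of -0.35. Leaving out the library that stood apart after tBHP, 31 fell and 2 rose with PBS (23.3% and 20.7% of all genes tested), 27 fell and 4 rose with cNSF-HA (24.1% and 21.2%), and 31 fell and 4 rose with fNSF-HA (26.2% and 24.4%). Relative to the mean of the PBS libraries without tBHP, the median of the 48 log2 differences lay between -0.039 and 0.022 in the 9 libraries without tBHP and between -0.39 and -0.26 in the 9 libraries after it. The libraries of both states did not overlap in this median, and in each of the 9 after tBHP 35 to 41 of the 48 genes were below that mean. In such bulk samples fewer cells of a kind and less RNA per cell cannot be told apart.

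**Figure D1:**
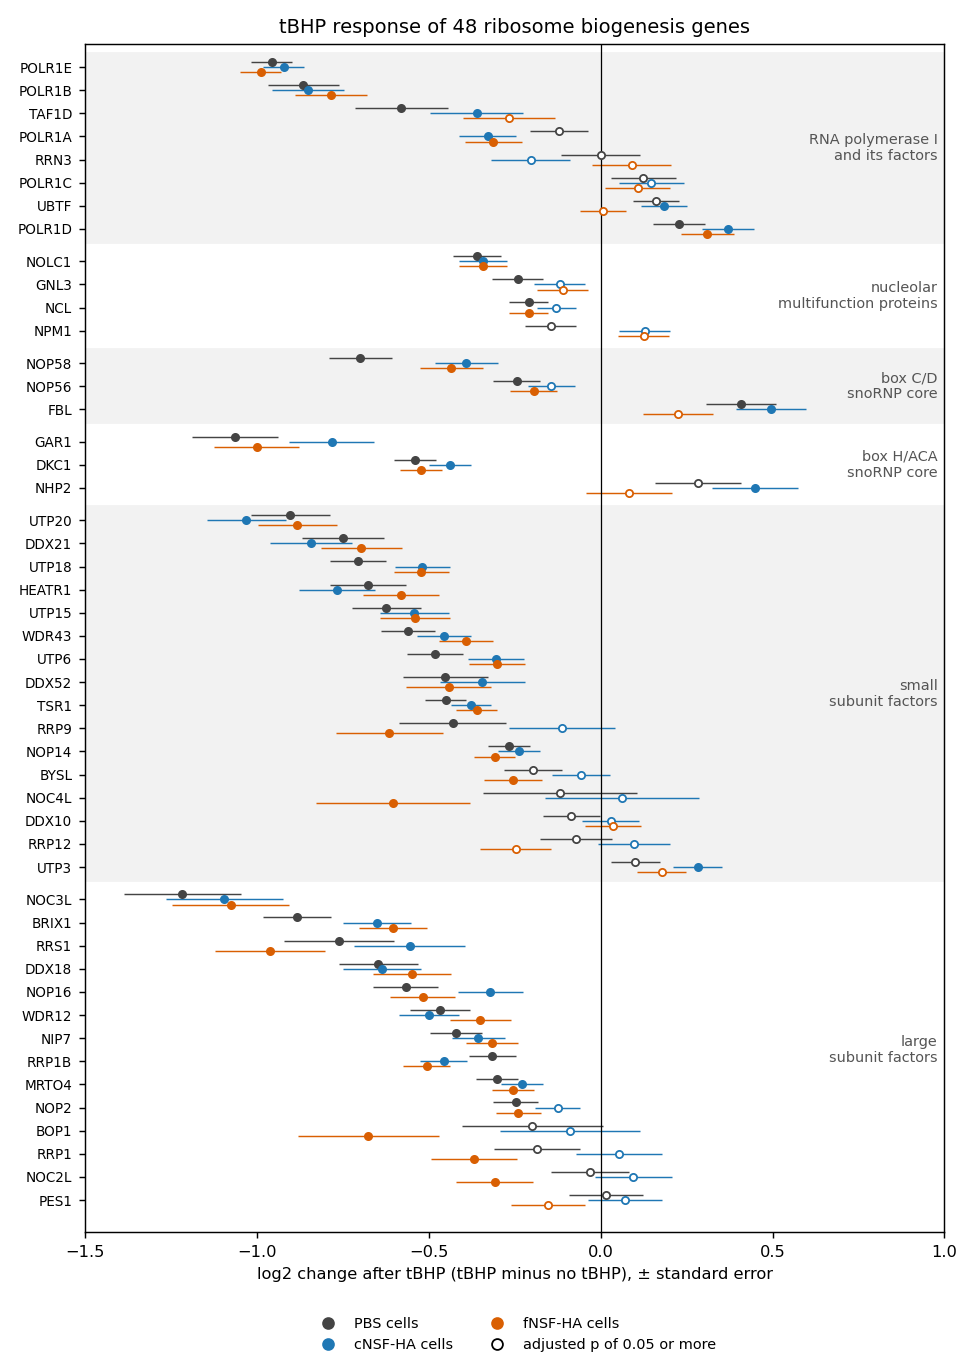
Log2 change after tBHP of each of the 48 genes (horizontal axis, points with their standard error) in PBS, cNSF-HA and fNSF-HA cells, grouped by role, with open points for an adjusted p of 0.05 or more. Of the 48 genes, 25 fell in all 3 kinds of cells, and POLR1D rose in all 3.

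By limma 25 of the 48 genes fell in all 3 responses and 37 in at least 1, where 17.9% and 33.8% of all genes tested did. The 25 were POLR1B and POLR1E, the nucleolar protein gene NOLC1, the snoRNP genes NOP58, GAR1 and DKC1, the small subunit factor genes UTP6, UTP15, UTP18, UTP20, WDR43, HEATR1, NOP14, TSR1, DDX21 and DDX52, and the large subunit factor genes NOC3L, BRIX1, RRS1, DDX18, NOP16, WDR12, NIP7, RRP1B and MRTO4. POLR1D rose in all 3, as did 14.6% of all genes tested, and FBL, NHP2, UTP3 and UBTF rose in 1 or 2 of them. DDX10, NPM1, PES1, POLR1C, RRN3 and RRP12 passed limma's test in none, as did 35.6% of all genes tested. However, edgeR called NPM1 as higher after tBHP in cNSF-HA and fNSF-HA cells, and limma with a replicate block called RRP12 as lower in fNSF-HA cells (-0.25). None of the 48 rose in one response and fell in another (0.00731% of all genes tested), and 40 had the same sign in all 3, near the 76.3% of all genes tested.

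Promoter sequences are shown for 4 genes that fell in PBS cells and 1 that rose, since the genes moved together. RefSeq windows of 300 bases (GRCh38.p14), from 250 before to 50 after the start, were at hand for 39 of the 48 genes and not for POLR1E, NOP58, NOLC1, RRP12, BOP1, RRS1, DDX52, DDX18 and RRP1B. They were searched for CACGTG, the canonical E-box, which reads the same on both strands and is known as a binding site of MYC and related factors. The letters were in at least 1 window of 14 of the 39 genes (35.9%), against 1210 of 9700 genes tested (12.5%) and 2396 of 27305 symbols in the RefSeq table (8.78%). Of the 24 genes that fell in PBS cells and had a window, 11 (45.8%) held them, and of the other 15, 3 (20%). A match is a description of the sequence and no measured binding site, and capitals mark it in the sequences, each written 5′ to 3′ on the strand of the gene: NOC3L at chr10:94362890-94363189 (minus strand), UTP20 at chr12:101279855-101280154 (plus strand), UTP18 at chr17:51260296-51260595 (plus strand), BRIX1 at chr5:34915461-34915760 (plus strand) and FBL at chr19:39846330-39846629 (minus strand).
NOC3L: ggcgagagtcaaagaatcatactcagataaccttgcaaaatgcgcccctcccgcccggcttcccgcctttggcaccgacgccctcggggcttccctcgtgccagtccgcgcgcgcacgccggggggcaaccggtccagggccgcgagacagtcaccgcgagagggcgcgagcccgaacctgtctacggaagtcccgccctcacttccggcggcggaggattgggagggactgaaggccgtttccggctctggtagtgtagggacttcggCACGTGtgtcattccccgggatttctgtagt
UTP20: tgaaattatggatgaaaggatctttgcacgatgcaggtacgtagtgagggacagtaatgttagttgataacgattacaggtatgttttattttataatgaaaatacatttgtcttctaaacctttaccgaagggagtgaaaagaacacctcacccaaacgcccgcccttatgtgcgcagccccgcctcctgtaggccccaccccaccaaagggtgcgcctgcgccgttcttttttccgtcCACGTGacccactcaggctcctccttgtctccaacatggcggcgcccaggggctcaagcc
UTP18: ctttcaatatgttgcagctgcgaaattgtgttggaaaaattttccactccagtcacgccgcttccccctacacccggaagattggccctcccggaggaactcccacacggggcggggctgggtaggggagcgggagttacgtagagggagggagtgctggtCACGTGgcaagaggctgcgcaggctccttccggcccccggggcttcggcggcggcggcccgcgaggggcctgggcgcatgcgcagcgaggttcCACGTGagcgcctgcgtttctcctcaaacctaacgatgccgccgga
BRIX1: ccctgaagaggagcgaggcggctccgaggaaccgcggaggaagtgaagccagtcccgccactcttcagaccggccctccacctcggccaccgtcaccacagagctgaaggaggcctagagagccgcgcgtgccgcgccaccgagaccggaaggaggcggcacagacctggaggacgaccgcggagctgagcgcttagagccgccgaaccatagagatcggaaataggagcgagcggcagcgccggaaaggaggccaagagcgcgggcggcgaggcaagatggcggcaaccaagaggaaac
FBL: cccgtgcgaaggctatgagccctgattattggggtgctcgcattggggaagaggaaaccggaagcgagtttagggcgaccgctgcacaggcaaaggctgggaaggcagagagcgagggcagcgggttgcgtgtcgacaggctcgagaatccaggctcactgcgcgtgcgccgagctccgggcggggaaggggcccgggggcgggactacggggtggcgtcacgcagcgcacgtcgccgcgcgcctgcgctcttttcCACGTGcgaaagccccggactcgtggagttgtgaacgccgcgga
In NOC3L the match begins 19 bases after the start, in UTP20 10 bases before it (-10) and in FBL 6 bases after it. UTP18 holds 2 matches, and BRIX1, whose mRNA also fell, holds none. These 4 were not the largest falls with a window, as GAR1 (-1.06), POLR1B (-0.86) and DDX21 (-0.75) fell more than UTP18 (-0.71). Their matches therefore do not stand for all 24 genes that fell in PBS cells and had a window. FBL, whose mRNA rose in PBS cells, holds 1. The other genes with a match were BYSL, DDX21, GAR1, GNL3, MRTO4, NOP14, NOP2, PES1, RRP9 and WDR43.

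Within RNA polymerase I and its factors, the subunit genes POLR1B and POLR1E fell in all 3 kinds of cells, and POLR1D rose in all 3. POLR1B encodes the second-largest subunit, which forms the active centre together with POLR1A. POLR1B had 894, 852 and 912 normalized counts in the PBS libraries without tBHP and 447, 540.0 and 476 after it. With cNSF-HA, POLR1B had 850.2, 867 and 831 without and 518, 478 and 421 after tBHP, and with fNSF-HA 808, 872 and 948 without and 516, 579 and 436 after it. Every library after tBHP was below every library without it. The log2 changes were -0.86 ± 0.10 with PBS, -0.85 ± 0.10 with cNSF-HA and -0.79 ± 0.10 with fNSF-HA (adjusted p = 2.56e-06, 3.38e-06 and 9.76e-06 by limma). POLR1E encodes PAF53, a subunit of the heterodimer that is particular to RNA polymerase I. POLR1E had 1661, 1611 and 1648 normalized counts in the PBS libraries without tBHP and 835, 857 and 841 after it. With cNSF-HA, POLR1E had 1608, 1634 and 1597 without and 812, 872 and 871 after tBHP, and with fNSF-HA 1718, 1689 and 1623 without and 863, 803 and 868 after it. Again no library after tBHP reached any without it, and the replicates lay close together. POLR1E changed by -0.96 ± 0.060 with PBS, -0.92 ± 0.060 with cNSF-HA and -0.99 ± 0.060 with fNSF-HA (adjusted p = 7.46e-10, 1.37e-09 and 5.65e-10 by limma), and its level after tBHP was 51.5% of the PBS level without it.

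POLR1D, a small subunit shared with RNA polymerase III, moved the other way. POLR1D had 1144, 1222 and 1181 normalized counts in the PBS libraries without tBHP and 1295, 1459 and 1407 after it. With cNSF-HA, POLR1D had 1148, 1169 and 1160.0 without and 1368, 1449 and 1700.0 after tBHP, and with fNSF-HA 1180.0, 1227 and 1118 without and 1486, 1439 and 1443 after it. All libraries after tBHP were above all libraries without it, and cNSF-HA replicate 3 after tBHP was the highest. POLR1D rose, with changes of 0.23 ± 0.077 with PBS, 0.37 ± 0.077 with cNSF-HA and 0.31 ± 0.077 with fNSF-HA (adjusted p = 0.0188, 0.000625 and 0.00328 by limma). The call in PBS cells was lost without PBS replicate 1 (0.20) or without PBS replicate 2 (0.19) or 3 (0.22) after tBHP. POLR1C, the other subunit among these genes that is shared with RNA polymerase III, passed limma's test in no response. POLR1C had 541, 536 and 554 normalized counts in the PBS libraries without tBHP and 528, 605 and 651 after it. With cNSF-HA, POLR1C had 607, 573 and 587 without and 618, 602 and 747 after tBHP, and with fNSF-HA 522, 600.1 and 566 without and 609, 636 and 573 after it. The values with and without tBHP overlapped, and the log2 changes of POLR1C were 0.12, 0.15 and 0.11 in PBS, cNSF-HA and fNSF-HA cells.

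POLR1A encodes the largest, catalytic subunit. POLR1A had 2835, 2820.0 and 2753 normalized counts in the PBS libraries without tBHP and 2692, 2574 and 2474 after it. With cNSF-HA, POLR1A had 2879, 2804 and 2828 without and 2559, 2389 and 1886 after tBHP, and with fNSF-HA 2941, 2776 and 2867 without and 2371, 2322 and 2223 after it. The values after tBHP were below those without it in every kind of cells, and cNSF-HA replicate 3 after tBHP was the lowest. POLR1A fell in cNSF-HA and fNSF-HA cells and did not pass the test in PBS cells, with changes of -0.12 ± 0.084 with PBS, -0.33 ± 0.084 with cNSF-HA and -0.31 ± 0.084 with fNSF-HA (adjusted p = 0.242, 0.00332 and 0.0059 by limma). With the GC and length trend of each library removed the PBS change of POLR1A was -0.25 and called. Without cNSF-HA replicate 3 after tBHP the cNSF-HA change was -0.20, still called. The difference between the cNSF-HA and the PBS response was -0.21 ± 0.12 (adjusted p = 0.999 by limma), and -0.0060 with the GC and length trend removed.

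Of the initiation factors, RRN3 (TIF-IA) recruits RNA polymerase I to the promoter and is a known target of growth and stress signals. RRN3 had 452, 470.3 and 414 normalized counts in the PBS libraries without tBHP and 434, 419 and 485 after it. With cNSF-HA, RRN3 had 469.5, 442 and 444 without and 418, 424 and 339.5 after tBHP, and with fNSF-HA 439, 506 and 439.8 without and 462, 588 and 434 after it. These values overlapped in PBS and fNSF-HA cells, and in cNSF-HA cells all 3 after tBHP were lower. RRN3 passed the test in no response, with log2 changes of 0.00025, -0.20 and 0.091 in PBS, cNSF-HA and fNSF-HA cells. RRN3 has near-identical pseudogene copies, so its count is uncertain. UBTF encodes UBF, which binds along the ribosomal DNA and keeps it open. UBTF had 2989, 2909 and 2871 normalized counts in the PBS libraries without tBHP and 3283, 3193 and 3323 after it. With cNSF-HA, UBTF had 3030.0, 2964 and 2771 without and 3209, 3320.0 and 3436 after tBHP, and with fNSF-HA 2905, 2993 and 3077 without and 3102, 2702 and 3237 after it. In PBS and cNSF-HA cells all 3 libraries after tBHP were higher, while in fNSF-HA cells replicate 2 after tBHP was the lowest of all. UBTF changed by 0.16 ± 0.067 with PBS, 0.19 ± 0.067 with cNSF-HA and 0.0066 ± 0.067 with fNSF-HA (adjusted p = 0.053, 0.0272 and 0.947 by limma), and its value in PBS cells was called by edgeR and DESeq2 and was -0.047 and not called once the trend of each library with GC content and length, described for TAF1D, was removed. Its rise with cNSF-HA was not called without 1 of 4 of the compared libraries (cNSF-HA replicates 2 and 3 without and after tBHP, 0.15 to 0.20), nor with that trend removed (0.042).

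TAF1D is a subunit of SL1, the promoter selectivity factor, and its introns also carry small nucleolar RNAs. TAF1D had 2181, 2348 and 2433 normalized counts in the PBS libraries without tBHP and 1226, 1843 and 1652 after it. With cNSF-HA, TAF1D had 1856, 2230.0 and 2170.0 without and 1498, 1540.0 and 1838 after tBHP, and with fNSF-HA 2259, 2317 and 2332 without and 1834, 2316 and 1654 after it. In PBS and cNSF-HA cells all values after tBHP were lower, while fNSF-HA replicate 2 after tBHP lay among the values without it. TAF1D fell in PBS and cNSF-HA cells, with changes of -0.58 ± 0.13 with PBS, -0.36 ± 0.13 with cNSF-HA and -0.27 ± 0.13 with fNSF-HA (adjusted p = 0.00158, 0.0321 and 0.124 by limma). Its transcript had the lowest GC content of the 48 genes (36.5%), and once a trend of each library with the GC content and length of transcripts was removed the changes were -0.060 in PBS and 0.11 in cNSF-HA cells, so that neither fall was called. The fall with cNSF-HA was also not called without cNSF-HA replicate 2 (-0.31) or 3 (-0.33), or without cNSF-HA replicate 1 (-0.30) or 2 (-0.32) after tBHP, and without fNSF-HA replicate 2 after tBHP the fNSF-HA change was -0.40 and called, while with the GC and length trend removed it was 0.032 and not called.

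**Figure D2:**
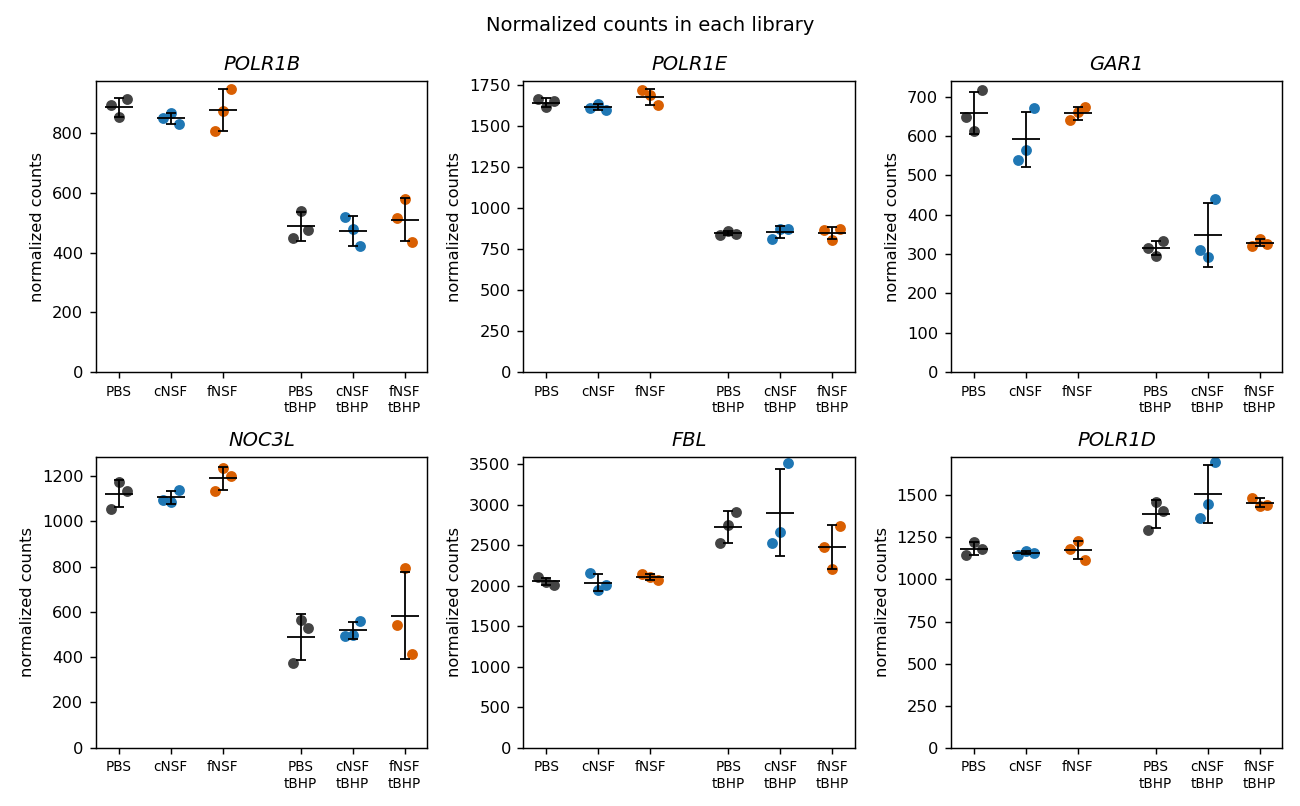
Normalized counts (vertical axis, from 0) of POLR1B, POLR1E, GAR1, NOC3L, FBL and POLR1D in each of the 18 libraries (points), with the mean and SD of each group of 3 (black). POLR1B, POLR1E, GAR1 and NOC3L are lower in all 9 libraries after tBHP than in all 9 without it, and FBL and POLR1D are higher in all 9.

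Among the nucleolar proteins with several functions NOLC1 fell in all 3 responses. NOLC1 (Nopp140) is a chaperone of snoRNPs that binds RNA polymerase I. NOLC1 had 3595, 3613 and 3615 normalized counts in the PBS libraries without tBHP and 2744, 2875 and 2811 after it. With cNSF-HA, NOLC1 had 3603, 3515 and 3480.0 without and 2943, 2944 and 2491 after tBHP, and with fNSF-HA 3649, 3581 and 3708 without and 2884, 3107 and 2655 after it. No library after tBHP reached the values without it. NOLC1 fell, with log2 changes of -0.36 ± 0.070 with PBS, -0.34 ± 0.070 with cNSF-HA and -0.34 ± 0.070 with fNSF-HA (adjusted p = 0.000331, 0.00054 and 0.000689 by limma). GNL3 encodes nucleostemin, a GTP-binding nucleolar protein of proliferating cells. GNL3 had 3392, 3184 and 3174 normalized counts in the PBS libraries without tBHP and 2398, 2941 and 2942 after it. With cNSF-HA, GNL3 had 3149, 3088 and 3143 without and 2852, 2907 and 2877 after tBHP, and with fNSF-HA 3265, 3297 and 3226 without and 3035, 3240.0 and 2807 after it. PBS replicate 1 after tBHP was the lowest, and in fNSF-HA cells replicate 2 lay among the values without tBHP. The log2 changes of GNL3 were -0.24 ± 0.074 with PBS, -0.12 ± 0.074 with cNSF-HA and -0.11 ± 0.074 with fNSF-HA (adjusted p = 0.0115, 0.191 and 0.251 by limma). Its fall in PBS cells was not called without PBS replicate 1 (-0.21) or without PBS replicate 1 after tBHP (-0.14), and with the GC and length trend removed the value was 0.034. NCL, the abundant nucleolar protein nucleolin, changed by -0.21, -0.13 and -0.21 in PBS, cNSF-HA and fNSF-HA cells and passed the test in the first and the last. In cNSF-HA cells it was called with the GC and length trend removed (-0.10), by DESeq2 (-0.13) and with quantile normalization (-0.36). NPM1, the histone and ribosome chaperone nucleophosmin, did not pass limma's test in any, with changes of -0.15, 0.13 and 0.13. edgeR called it in cNSF-HA and fNSF-HA cells (0.19 in both), quantile normalization gave a called fall in PBS cells (-0.29), and its processed pseudogenes make its count uncertain.

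Of the box C/D core, NOP58 and NOP56 were lower after tBHP and the methyltransferase gene FBL was higher. NOP58 and NOP56 pair to form the scaffold of the particle. NOP58 had 2569, 2318 and 2328 normalized counts in the PBS libraries without tBHP and 1316, 1632 and 1509 after it. With cNSF-HA, NOP58 had 2221, 2296 and 2148 without and 1641, 1650.0 and 1797 after tBHP, and with fNSF-HA 2307, 2423 and 2416 without and 1793, 1990.0 and 1535 after it. All libraries after tBHP were lower than all without it. NOP58 fell, with log2 changes of -0.70 ± 0.091 with PBS, -0.39 ± 0.091 with cNSF-HA and -0.43 ± 0.091 with fNSF-HA (adjusted p = 5.51e-06, 0.00166 and 0.000859 by limma). They were -0.42, -0.21 and -0.32 with the GC and length trend removed, all called. NOP56 had 4781, 4592 and 4862 normalized counts in the PBS libraries without tBHP and 3744, 4082 and 4205 after it. With cNSF-HA, NOP56 had 4727, 4779 and 4565 without and 3906, 4168 and 4702 after tBHP, and with fNSF-HA 4561, 4591 and 4672 without and 3969, 3877 and 4238 after it. The groups did not overlap in PBS and fNSF-HA cells, while cNSF-HA replicate 3 after tBHP lay among the values without it. NOP56 changed by -0.24 ± 0.068 with PBS, -0.14 ± 0.068 with cNSF-HA and -0.20 ± 0.068 with fNSF-HA (adjusted p = 0.00635, 0.0895 and 0.0285 by limma), and the fall with fNSF-HA was not called without any 1 of 5 of the 6 compared libraries, all but fNSF-HA replicate 3 after tBHP (-0.20 to -0.17), while without cNSF-HA replicate 3 after tBHP the cNSF-HA change was -0.22 and called, as it was with the GC and length trend removed (-0.25).

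FBL, fibrillarin, places the methyl groups. FBL had 2103, 2045 and 2009 normalized counts in the PBS libraries without tBHP and 2524, 2747 and 2915 after it. With cNSF-HA, FBL had 2157, 1946 and 2011 without and 2532, 2666 and 3513 after tBHP, and with fNSF-HA 2149, 2109 and 2072 without and 2479, 2208 and 2743 after it. All libraries after tBHP were above all without it, fNSF-HA replicate 2 the least and cNSF-HA replicate 3 the most. FBL rose in PBS and cNSF-HA cells, with changes of 0.41 ± 0.10 with PBS, 0.50 ± 0.10 with cNSF-HA and 0.23 ± 0.10 with fNSF-HA (adjusted p = 0.00286, 0.000604 and 0.0855 by limma). The fNSF-HA value was also called by edgeR (0.29) and, without fNSF-HA replicate 2 after tBHP, by limma (0.31). The changes of FBL were smaller with the GC and length trend removed, at 0.19 and 0.20 in PBS and cNSF-HA cells, both called, and 0.077 in fNSF-HA cells. Within the same particle the log2 changes in PBS cells ran from -0.70 for NOP58 to 0.41 for FBL as deposited and from -0.42 to 0.19 with the trend removed.

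Of the box H/ACA core, GAR1 and DKC1 fell in all 3 responses. GAR1, a protein at the surface of the particle that helps it release its substrate, showed the second-largest fall of the 48 genes in PBS cells as deposited. GAR1 had 649, 612 and 718 normalized counts in the PBS libraries without tBHP and 316, 296 and 333 after it. With cNSF-HA, GAR1 had 539, 566 and 671 without and 311, 292 and 441 after tBHP, and with fNSF-HA 640.5, 660.2 and 674 without and 322, 338 and 326 after it. Every library after tBHP was lower than every library without it. GAR1 fell, with log2 changes of -1.06 ± 0.12 with PBS, -0.78 ± 0.12 with cNSF-HA and -0.9998 ± 0.12 with fNSF-HA (adjusted p = 1.64e-06, 5.1e-05 and 4.26e-06 by limma), to 47.8% of the level without tBHP in PBS cells. DKC1 encodes dyskerin, the pseudouridine synthase itself. DKC1 had 2920.0, 2922 and 2858 normalized counts in the PBS libraries without tBHP and 1950.0, 2047 and 1994 after it. With cNSF-HA, DKC1 had 3031, 2868 and 2754 without and 2057, 2248 and 2078 after tBHP, and with fNSF-HA 2955, 3032 and 2935 without and 2068, 2193 and 1960.0 after it. The 9 libraries after tBHP were all below the other 9. DKC1 fell, with changes of -0.54 ± 0.061 with PBS, -0.44 ± 0.061 with cNSF-HA and -0.52 ± 0.061 with fNSF-HA (adjusted p = 1.28e-06, 1.4e-05 and 2.32e-06 by limma). NHP2, an RNA-binding core protein, changed by 0.28, 0.45 and 0.082 in PBS, cNSF-HA and fNSF-HA cells and rose past the threshold with cNSF-HA. Without fNSF-HA replicate 2 after tBHP the fNSF-HA value of NHP2 was 0.26, which was called, and edgeR called its PBS value (0.35). The changes of NHP2 with the GC and length trend removed were 0.021, 0.073 and -0.065, none of them called.

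Of the 16 small subunit factor genes 11 fell with PBS, 10 with cNSF-HA and 13 with fNSF-HA, and by limma UTP3 rose in cNSF-HA cells (0.28). The value of UTP3 with fNSF-HA was 0.18, called by edgeR and DESeq2 and, without fNSF-HA replicate 2 after tBHP (0.20) or with the GC and length trend removed (0.17), by limma. With that trend removed its PBS value was 0.18 and also called. UTP20, a very large scaffold protein of the small subunit processome, had the largest fall of this role in all 3 as deposited, while with the GC and length trend removed RRP9 (-0.75) and UTP18 (-0.68) were ahead of it (-0.67) in PBS cells. UTP20 had 2541, 2529 and 2460.0 normalized counts in the PBS libraries without tBHP and 1284, 1414 and 1333 after it. With cNSF-HA, UTP20 had 2533, 2580.0 and 2575 without and 1447, 1319 and 1035 after tBHP, and with fNSF-HA 2642, 2763 and 2729 without and 1523, 1737 and 1200.0 after it. All values after tBHP were below all values without it, and cNSF-HA replicate 3 was the lowest. UTP20 fell, with log2 changes of -0.90 ± 0.11 with PBS, -1.03 ± 0.11 with cNSF-HA and -0.88 ± 0.11 with fNSF-HA (adjusted p = 4.45e-06, 1.11e-06 and 7.49e-06 by limma). DDX21 encodes an RNA helicase that binds both RNA polymerase I transcripts and snoRNAs. DDX21 had 6816, 7262 and 7152 normalized counts in the PBS libraries without tBHP and 3720.0, 4544 and 4410.0 after it. With cNSF-HA, DDX21 had 6796, 6880.0 and 6776 without and 4113, 4210.0 and 3173 after tBHP, and with fNSF-HA 7327, 7371 and 7329 without and 4381, 5617 and 3786 after it. The values of both states did not overlap, with fNSF-HA replicate 2 the highest after tBHP. DDX21 fell, with changes of -0.75 ± 0.12 with PBS, -0.84 ± 0.12 with cNSF-HA and -0.70 ± 0.12 with fNSF-HA (adjusted p = 4.81e-05, 1.55e-05 and 0.000133 by limma), and of -0.45, -0.53 and -0.52 with the GC and length trend removed.

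The other small subunit factors ranged in PBS cells from UTP18 (-0.71) to UTP3 (0.10). HEATR1, UTP15 and WDR43, which act in the t-UTP/UTP-A part of the processome that couples it to transcription, changed in PBS cells by -0.68, -0.62 and -0.56 and fell in all 3 kinds of cells. Their PBS changes were -0.40, -0.20 and -0.21 with the GC and length trend removed, still called, and the cNSF-HA changes of HEATR1 and WDR43 -0.40 and -0.15. UTP18 and UTP6, of the UTP-B part, fell in PBS, cNSF-HA and fNSF-HA cells, with log2 changes of -0.71, -0.52 and -0.52 for UTP18 and of -0.48, -0.30 and -0.30 for UTP6. TSR1, a GTPase-like factor of late small subunit maturation, also fell in all 3 (-0.45, -0.38 and -0.36), as did NOP14 (-0.27, -0.24 and -0.31) and the helicase gene DDX52 (-0.45, -0.34 and -0.44). With the GC and length trend removed the cNSF-HA values of UTP15 (-0.13) and UTP6 (-0.0995) were not called, nor were those of DDX52 in PBS (-0.094) and cNSF-HA cells (0.055), while its fNSF-HA fall was -0.21 and the PBS fall of UTP6 -0.29. RRP9, a protein bound to the U3 snoRNA, fell in PBS and fNSF-HA cells (-0.43 and -0.61) and changed by -0.11 with cNSF-HA, which did not pass the test. The PBS fall of RRP9 was not called without any 1 of the PBS replicates without tBHP or without replicate 2 after it (-0.45 to -0.28), and its fNSF-HA fall was -0.39 without fNSF-HA replicate 2 after tBHP. RRP9 was at -0.75, -0.52 and -0.71 with the GC and length trend removed, called in all 3. For DDX52 the cNSF-HA fall was not called without any 1 of the cNSF-HA replicates without tBHP or without replicate 3 after it (-0.36 to -0.30), and the fNSF-HA fall was -0.28 without fNSF-HA replicate 3 after tBHP. BYSL, another late factor, passed the test in fNSF-HA cells (-0.25) and had changes of -0.20 and -0.056 in PBS and cNSF-HA cells. Without fNSF-HA replicate 2 after tBHP this change was -0.15 and not called, nor was it called without fNSF-HA replicate 1 or 2 without tBHP, while without PBS replicate 1 after tBHP the PBS change (-0.24) was called. With the GC and length trend removed the changes of BYSL were -0.45, -0.37 and -0.37, all called. The difference between its responses with cNSF-HA and fNSF-HA was 0.20 ± 0.12 (adjusted p = 0.71 by limma) as deposited and -0.00047 ± 0.076 with the trend removed. NOC4L is described with the HA comparison. The helicase gene DDX10 changed by -0.085, 0.030 and 0.036 and RRP12 by -0.072, 0.096 and -0.25, none of them past the threshold by limma. The fNSF-HA value of RRP12 was called with a replicate block (-0.25) and, at -0.35, without fNSF-HA replicate 3 after tBHP. This omission keeps replicate 2, the library that stood apart. With fNSF-HA, RRP12 had 1750, 1697 and 1753 normalized counts without and 1578, 1164 and 1695 after tBHP.

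Of the 14 large subunit factor genes 10 fell with PBS, 9 with cNSF-HA and 13 with fNSF-HA, and none rose. NOC3L, a factor of early pre-60S particles, had the largest fall of all 48 genes in each of the 3 responses as deposited. NOC3L had 1057, 1174 and 1135 normalized counts in the PBS libraries without tBHP and 374, 564 and 531 after it. With cNSF-HA, NOC3L had 1093, 1087 and 1141 without and 495, 498 and 562 after tBHP, and with fNSF-HA 1134, 1237 and 1200.0 without and 542, 795 and 416 after it. Even the highest value after tBHP, fNSF-HA replicate 2, was below the lowest without it. NOC3L fell, with log2 changes of -1.22 ± 0.17 with PBS, -1.09 ± 0.17 with cNSF-HA and -1.08 ± 0.17 with fNSF-HA (adjusted p = 1.25e-05, 4.22e-05 and 6.06e-05 by limma), in PBS cells to 43.1% of the level without tBHP. With the GC and length trend removed its falls were -0.74, -0.69 and -0.82, and the largest were those of GAR1 in PBS cells (-1.10) and of POLR1E in cNSF-HA (-1.08) and fNSF-HA cells (-1.10). BRIX1 binds the forming large subunit together with other Brix domain proteins. BRIX1 had 1420.0, 1336 and 1373 normalized counts in the PBS libraries without tBHP and 646, 855 and 752 after it. With cNSF-HA, BRIX1 had 1241, 1266 and 1431 without and 772, 791 and 952 after tBHP, and with fNSF-HA 1440.0, 1404 and 1432 without and 1008, 915 and 893 after it. The 2 states did not overlap in any kind of cells. BRIX1 fell, with changes of -0.88 ± 0.099 with PBS, -0.65 ± 0.099 with cNSF-HA and -0.60 ± 0.099 with fNSF-HA (adjusted p = 1.06e-06, 3.44e-05 and 8.72e-05 by limma). These were -0.44, -0.32 and -0.39 with the GC and length trend removed, all called.

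RRS1, which helps to bring the 5S ribosomal RNA into the large subunit, fell in PBS, cNSF-HA and fNSF-HA cells (-0.76, -0.55 and -0.96), and so did the helicase gene DDX18 (-0.65, -0.64 and -0.55). The changes of DDX18 were -0.32, -0.28 and -0.35 with the GC and length trend removed, and that of RRS1 in cNSF-HA cells -0.875. The PeBoW complex, which cuts and matures the precursor of the large subunit RNAs, gave different calls for its 3 genes as deposited. Of these WDR12 fell in all 3 responses (-0.47, -0.50 and -0.35), BOP1 passed the test in fNSF-HA cells (-0.20, -0.088 and -0.68), and PES1 did not pass it in any (0.016, 0.071 and -0.15). Without fNSF-HA replicate 2 after tBHP the change of BOP1 was -0.32, still called, and without replicate 3 that of PES1 was -0.27 and called. The PES1 value without replicate 3 keeps replicate 2, the library that stood apart. With fNSF-HA, PES1 had 3216, 3115 and 3177 normalized counts without and 3047, 2267 and 3346 after tBHP. With the GC and length trend removed these calls changed, in that BOP1 (-0.56, -0.50 and -0.70) and PES1 (-0.24, -0.21 and -0.24) fell in PBS, cNSF-HA and fNSF-HA cells, and WDR12 (-0.12, -0.078 and -0.12) passed the test in none. The difference between the responses of BOP1 with cNSF-HA and fNSF-HA was 0.59 ± 0.29 (adjusted p = 0.71 by limma), and 0.20 ± 0.073 with the trend removed. NOP16 (-0.57, -0.32 and -0.52), NIP7 (-0.42, -0.36 and -0.32), RRP1B (-0.31, -0.46 and -0.51) and the P-stalk assembly factor gene MRTO4 (-0.30, -0.23 and -0.26) fell in all 3. The cNSF-HA change of NOP16 was -0.62 with the GC and length trend removed, and the PBS and cNSF-HA changes of MRTO4 were -0.49 and -0.45. NOP2, an RNA methyltransferase gene, fell in PBS and fNSF-HA cells (-0.25 and -0.24) and changed by -0.12 in cNSF-HA cells, which did not pass but was called with the GC and length trend removed (-0.35), when its PBS change was -0.46. RRP1 and NOC2L are described with the HA comparison.

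Other genes of the pathway, listed by hand by function and not overlapping the 48, are set beside them for the PBS response. Of 8 other RNA polymerase I genes 5 fell and 1 rose, with falls of TWISTNB (-1.02 ± 0.13), the stalk subunit, and CD3EAP (-0.90 ± 0.087), the partner of POLR1E in its heterodimer, past the threshold (adjusted p = 3.63e-06 and 1.69e-07 by limma). Mean values of TWISTNB were 807 ± 38.6 without and 399 ± 46.3 after tBHP (SD, n = 3), and those of CD3EAP 905 ± 6.98 and 484 ± 38.6. Of 37 other small subunit factors tested 20 fell and 4 rose, led by PNO1 (-1.05) and WDR75 (-0.96), and of 41 other large subunit factors 16 fell and 5 rose, led by PAK1IP1 and NIFK. The 10 other snoRNP genes had 4 falls and 1 rise, and the 23 genes of the RNA exosome and RNase MRP 8 falls and 1 rise, beside 26.9% falls and 24.2% rises among all genes tested. Over the 96 genes tested of the first 4 of these lists, without the exosome and RNase MRP genes, 45 fell and 11 rose, with a median log2 change of -0.20 against -0.34 for the 48. With cNSF-HA 35 of the 96 fell and 12 rose (median -0.11), and with fNSF-HA 43 fell and 10 rose (median -0.19).

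**Figure D3:**
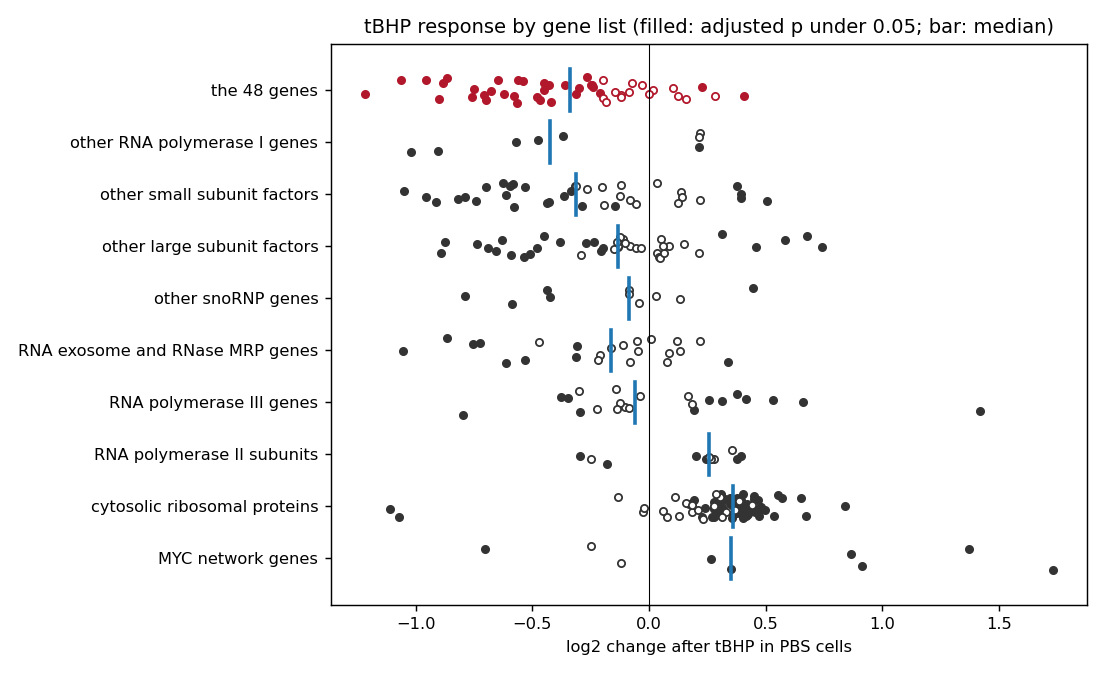
Log2 change after tBHP in PBS cells (horizontal axis) of each gene of 10 lists (rows, points spread vertically so that they do not cover each other), with the median of each list as a bar and open points for an adjusted p of 0.05 or more. As deposited, the median of the 48 genes was -0.34, and that of 79 cytosolic ribosomal protein genes was 0.36.

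Genes of the ribosome's own proteins and of the RNA polymerase II and III lists were on the other side of 0 or spread around it in the PBS response. Of 79 cytosolic ribosomal protein genes 56 rose and 2 fell (RPL39 and RPL36A), with a median of 0.36. Many of these genes have processed pseudogenes, so that their counts are uncertain. Of 22 RNA polymerase III genes 8 rose and 4 fell, with BRF2 (1.42) and POLR3G (-0.80) the largest changes in each direction, and of 11 RNA polymerase II subunit genes tested 4 rose and 2 fell. Among the latter, POLR2E (0.28), POLR2H (0.39), POLR2K (-0.25) and POLR2L (0.26) encode subunits that RNA polymerases I and III also contain. Of these only POLR2H was called. Of 9 MYC network genes tested 6 rose and 1 fell, the MYC antagonists MXI1 (1.73) and MXD1 (1.37) rising the most. MYC itself rose (0.27), and the gene that fell was MXD3 (-0.70), another MYC antagonist. All these counts stand beside 24.2% rises and 26.9% falls among all genes tested in the PBS response.

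Between HA groups the 48 genes were compared to ask whether the length of the HA, or its presence, changed their levels before or after tBHP. These comparisons share libraries with each other and with the tBHP responses. Without tBHP none of the 48 genes was called by limma, at an adjusted p (0% of all genes tested in each of the 3 comparisons) or at an unadjusted p under 0.05, where cNSF-HA against fNSF-HA had 1.51% of all genes tested, cNSF-HA against PBS 0.921% and fNSF-HA against PBS 0.796%. edgeR and DESeq2 called none of them either. The limma fit shares 1 spread per gene over all 18 libraries, while the median SD was 0.063 to 0.070 without tBHP and 0.15 to 0.22 after it. It thus tends to overstate the spread without tBHP and to understate it after tBHP. The absence of calls without tBHP therefore does not show that the levels were alike. A fit of the 6 libraries of cNSF-HA and fNSF-HA alone called 5 of the 48 as lower with cNSF-HA (DDX21, UTP15, DDX18, NCL and TAF1D), near the 7.16% of all genes tested.

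After tBHP, cNSF-HA and fNSF-HA cells did not differ in any of the 48 genes at an adjusted p (0% of all genes tested by limma). At an unadjusted p under 0.05 there were 15 of 48, near the 32.2% of all genes tested. edgeR called none and DESeq2 4, NHP2, RRP1, NOC2L and NOC4L, all higher with cNSF-HA, where it called 6.74% of all genes tested. Without fNSF-HA replicate 3, limma called 21 of 48 (13 higher and 8 lower with cNSF-HA), again near the 40.8% of all genes tested. The libraries of both groups did not overlap for NOP2, BYSL and NOC2L, which were higher with cNSF-HA (5.07% of all genes tested), and for UTP15 and RRN3, which were lower (8.29%).

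The 3 genes with the smallest unadjusted p in this comparison were RRP1 and NOC2L, of large subunit assembly, and NOC4L, of small subunit assembly. RRP1 had 1058, 1047 and 1026 normalized counts in the PBS libraries without tBHP and 1032, 866 and 866 after it. With cNSF-HA, RRP1 had 1042, 1052 and 1055 without and 954, 1069 and 1266 after tBHP, and with fNSF-HA 1046, 1005 and 1016 without and 821, 623 and 970.4 after it. After tBHP cNSF-HA replicate 3 was the highest and fNSF-HA replicate 2 the lowest of all 18 libraries. The difference of cNSF-HA minus fNSF-HA after tBHP was 0.46 ± 0.12 for RRP1 (adjusted p = 0.0981 by limma). NOC2L had 5048, 4610.0 and 4604 normalized counts in the PBS libraries without tBHP and 5251, 4337 and 4416 after it. With cNSF-HA, NOC2L had 4975, 4801 and 4700.0 without and 4939, 5068 and 5473 after tBHP, and with fNSF-HA 4870.0, 4755 and 4769 without and 4099, 3021 and 4694 after it. The same 2 libraries were at the ends, and the values of cNSF-HA lay above those of fNSF-HA after tBHP. For NOC2L the difference was 0.41 ± 0.11 (adjusted p = 0.0981 by limma).

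NOC4L had the largest difference of the 48 in this comparison. NOC4L had 582, 579.5 and 539 normalized counts in the PBS libraries without tBHP and 608, 445 and 524 after it. With cNSF-HA, NOC4L had 627, 602 and 534 without and 514, 601 and 742 after tBHP, and with fNSF-HA 573, 513 and 570.2 without and 396, 216 and 557 after it. Replicate 2 of fNSF-HA after tBHP was far below the other libraries, and replicate 3 lay among the cNSF-HA values. The difference was 0.75 ± 0.22 (adjusted p = 0.0981 by limma). Without fNSF-HA replicate 2 after tBHP the differences of RRP1, NOC2L and NOC4L were 0.29, 0.23 and 0.38, and without replicate 3 they were 0.61, 0.55 and 1.06 and were called. They were 0.14, 0.21 and 0.24 with the GC and length trend removed, with adjusted p-values of 0.204, 0.0951 and 0.141 by limma. In the fNSF-HA response to tBHP, RRP1 (-0.37), NOC2L (-0.31) and NOC4L (-0.60) passed the threshold, and none did without fNSF-HA replicate 2 after tBHP (-0.20, -0.13 and -0.23) or without any 1 of the fNSF-HA replicates without tBHP. NOC4L was also not called without fNSF-HA replicate 1 after tBHP (-0.67), and without replicate 3 its change was -0.91.

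**Figure D4:**
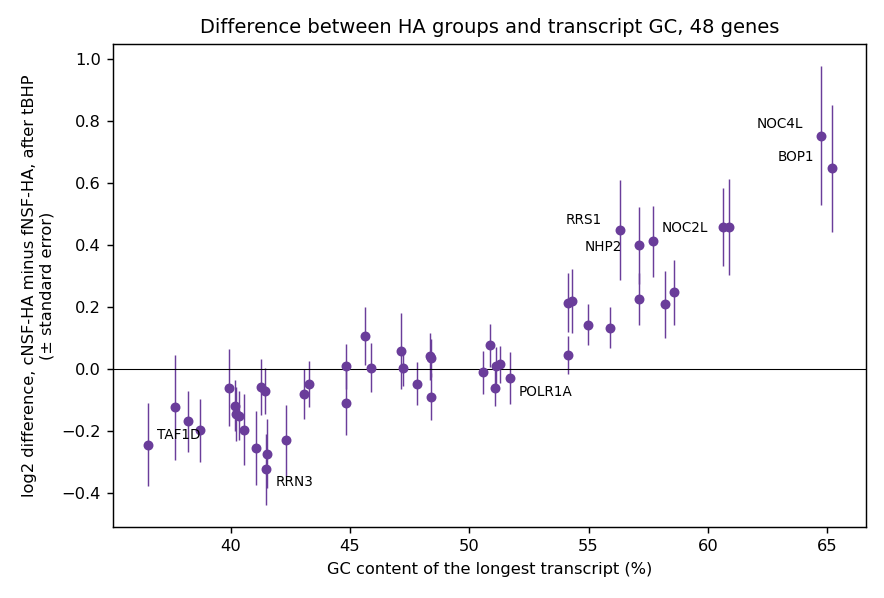
Log2 difference of cNSF-HA minus fNSF-HA after tBHP (vertical axis, points with their standard error) against the GC content in percent of the longest transcript (horizontal axis) for each of the 48 genes. The 11 genes with a GC content of at least 55% all lay above 0, and of the 19 under 45% 1 did.

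The difference between cNSF-HA and fNSF-HA after tBHP followed the GC content of the transcript. Spearman's rho across the 48 genes was 0.896, and across 12528 genes tested with a known transcript 0.776, as a description of genes that share the same libraries. The 11 genes with a GC content of at least 55% had a median difference of 0.41, and all 11 were above 0, NOC4L (64.8%), BOP1 (65.2%) and RRP1 (60.7%) among them. The 19 genes under 45% had a median of -0.14, with 1 above 0. Without fNSF-HA replicate 2 the medians were 0.22 and -0.053, with all 11 and 3 of the 19 above 0, and without replicate 3 they were 0.55 and -0.23. Without replicate 2 rho was 0.703 and without replicate 3 it was 0.903, and with the trend of each library with GC content and length removed it was 0.0249 across the 48 genes. In the same comparison without tBHP rho was 0.713. The GC content of the 48 transcripts ran from 36.5% to 65.2%, with a median of 48.1% against 47.9% for all genes tested.

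The falls after tBHP were measured under the same removal. With the trend of GC content and length removed 35 of the 48 fell and 6 rose in PBS cells (29.5% and 28.3% of all genes tested in this fit), 33 fell and 5 rose in cNSF-HA cells (28.4% and 28.2%), and 36 fell and 5 rose in fNSF-HA cells (28.5% and 27.6%). Of the 25 genes that fell in all 3 responses as deposited 21 did so here too, the others being WDR12, DDX52, UTP15 and UTP6. Of the 33, 32 and 36 genes called as deposited in PBS, cNSF-HA and fNSF-HA cells, 29, 25 and 35 were called in the same direction, and the values of 17, 18 and 7 moved by more than 1.5 times. Among the genes called in no response as deposited, PES1 (-0.24, -0.21 and -0.24 in PBS, cNSF-HA and fNSF-HA cells) and RRP12 (-0.33, -0.14 and -0.30) then fell in all 3 and DDX10 (0.26, 0.42 and 0.26) rose in all 3. RRN3 then rose in PBS and fNSF-HA cells (0.29 and 0.24), NPM1 in cNSF-HA and fNSF-HA cells (0.20 and 0.16) and POLR1C in PBS cells (0.18). Spearman's rho between GC content and log2 change in the values as deposited was 0.473 with PBS, 0.520 with cNSF-HA and 0.108 with fNSF-HA across the 48 genes. The fNSF-HA value was 0.422 without fNSF-HA replicate 2 after tBHP and -0.177 without replicate 3. With the trend removed rho was -0.293 with PBS, -0.226 with cNSF-HA and -0.275 with fNSF-HA across the 48 genes. RRP1, NOC2L and NOC4L, at 0.053, 0.096 and 0.061 in the cNSF-HA response, were at -0.26, -0.13 and -0.39 with the trend removed, and at -0.47, -0.28 and -0.49 in the PBS response, all 6 of them called.

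Against PBS after tBHP, cNSF-HA cells had 0 of the 48 genes called by limma (0% of all genes tested), by edgeR or by DESeq2, and 7 at an unadjusted p under 0.05 (8.64% of all genes tested). The smallest p was that of NPM1, with a difference of 0.23 ± 0.074 (adjusted p = 0.497 by limma). For fNSF-HA against PBS after tBHP limma and edgeR called 0 of the 48, where limma called 0.139% of all genes tested, and 11 were at an unadjusted p under 0.05, near the 22.7% of all genes tested. DESeq2 called 1, NPM1, against 3.23% of all genes tested. Without fNSF-HA replicate 3 after tBHP limma called 16 of 48 (11 higher and 5 lower with fNSF-HA), against 29.4% of all genes tested, and without PBS replicate 2 after tBHP 1, BRIX1, against 1.25%.

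NPM1 had 20220.0, 19950.0 and 19230.0 normalized counts in the PBS libraries without tBHP and 15790.0, 19130.0 and 18990.0 after it. With cNSF-HA, NPM1 had 19450.0, 19380.0 and 18840.0 without and 19270.0, 21530.0 and 22360.0 after tBHP, and with fNSF-HA 19920.0, 19480.0 and 20340.0 without and 22720.0, 22310.0 and 20230.0 after it. PBS replicate 1 after tBHP was the lowest, and both HA groups lay above the PBS libraries after tBHP. The difference of fNSF-HA minus PBS for NPM1 was 0.28 ± 0.074 (adjusted p = 0.0908 by limma). For BRIX1, whose values are given above, this difference was 0.33 ± 0.099 (adjusted p = 0.114 by limma), with the 3 fNSF-HA values above the 3 of PBS. The differences of NPM1 and BRIX1 were 0.14 and 0.081 with the GC and length trend removed, neither called. Leaving out fNSF-HA replicate 3 gave 0.33 and 0.36, both called, and leaving out PBS replicate 1 gave 0.19 and 0.23. Across the 48 genes, rho between GC content and the fNSF-HA minus PBS difference was -0.904. It was -0.371 without fNSF-HA replicate 2 after tBHP, -0.943 without replicate 3 and 0.0368 with the trend removed.

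Whether the response to tBHP itself differed between pre-incubations was tested as an interaction. None of the 48 passed at an adjusted p (0% of all genes tested by limma in each of the 3 tests), and none was called by edgeR or DESeq2. For cNSF-HA against PBS 2 genes, NOP58 (0.31 ± 0.13) and NPM1 (0.27 ± 0.10), had an unadjusted p under 0.05, where 4.06% of all genes tested did. For fNSF-HA against PBS NPM1 did (0.27 ± 0.10), where 6.88% of all genes tested did. For cNSF-HA against fNSF-HA there were 4, RRP9 (0.50), RRP1 (0.42), NOC2L (0.40) and RRP12 (0.34), where 3.89% of all genes tested did. These 4 differences were 0.19, 0.17, 0.24 and 0.16 with the GC and length trend removed. In the same way those of NOP58 and NPM1 for cNSF-HA against PBS were 0.21 and 0.18, and that of NPM1 for fNSF-HA against PBS 0.14. A p that misses the threshold does not show that the responses were alike, and for POLR1E, which had the smallest p of the 48 in each tBHP response, the difference between the cNSF-HA and the PBS response was 0.035 ± 0.085.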

How the data were processed

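RNA of 18 IMR90 libraries was sequenced as single-end reads with an unstranded poly(A) kit. Per the submitters' processing notes, the authors used Trimmomatic 0.32, STAR 2.5.2b and featureCounts of Subread 1.5.0-p3 on GRCh38, and the annotation release is not given in the sources used here. The deposited values are a signal, gene counts that the authors divided by DESeq2 size factors. Low values of all libraries came out as whole reads (100%, tolerance 0.1 of a read), so that reads could be recovered. The deposited table also holds 3 columns of a comparison by the authors (p-value, q-value and rank), which were not used.

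Log2(value + 1) of the 13686 genes with a mean of at least 10 was fitted with limma 3.58.1 in R 4.3.3 (1 coefficient for each of the 6 groups, variances shrunk towards a trend with the mean, two-sided p-values adjusted over all genes tested by the Benjamini-Hochberg method). Fold changes are on this scale, which understates changes of low genes. Recovered reads were also tested with edgeR 4.0.16 (quasi-likelihood) and DESeq2 1.42.0, and the fits were tested on simulated data. Other alternatives were pseudocounts of 0.1 and 5, no filter, a minimum mean of 50, quantile normalization, the compared groups alone, a replicate block, each library left out in turn, and removal of each library's trend with the GC content and the length of the longest GENCODE 29 transcript, fitted by natural splines of 5 degrees of freedom (91.5% of genes tested). The members and the other lists were chosen with earlier results of these data known. Values in each library are given for all RNA polymerase I members, for up to 2 largest falls and 2 largest rises of each other role in PBS cells, and for the 3 members with the smallest p between the HA groups after tBHP. NPM1 was added after its values were seen.

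Replicates differed by 1.48 to 2.69 times the sampling variance of reads (chi-square per degree of freedom) without tBHP and by 2.86 to 71.2 times after it, so that after tBHP the precision rested on replicate spread more than on depth.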

Additional observations from a re-analysis of the deposited data

Results flagged for a closer look

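For NOP58 the difference of cNSF-HA minus PBS was 0.20 (0.1952) after tBHP and -0.11 without tBHP, and in each state the 3 cNSF-HA libraries all lay on that side of the 3 PBS libraries. The test of the difference between these effects gave 0.31 ± 0.13 (unadjusted p = 0.0271, adjusted p = 0.999 by limma), which did not pass the threshold. With the trend of each library with GC content and length removed, the effects on NOP58 were 0.15 after tBHP and -0.062 without it, and their difference was 0.21 ± 0.069 (unadjusted p = 0.00650, adjusted p = 0.674 by limma). For RRP12, which helps to export ribosomal subunits, the 3 libraries after tBHP were all above the 3 without it in cNSF-HA cells (0.096) and all below in fNSF-HA cells (-0.25). Here the difference between the responses was 0.34 ± 0.15 (unadjusted p = 0.0320, adjusted p = 0.710 by limma), which also missed the threshold. The transcript of RRP12 has a GC content of 58.6%. Its lowest value (1164) was that of fNSF-HA replicate 2 after tBHP, beside 1578 and 1695 in replicates 1 and 3 of that group. The difference without this library is not given here. With the GC and length trend removed RRP12 fell in both (-0.14 with cNSF-HA and -0.30 with fNSF-HA), and the difference between the responses was 0.16 ± 0.063 (unadjusted p = 0.0168, adjusted p = 0.804 by limma).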

How the results depend on the processing

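The counts of genes called in the 3 tBHP responses stayed within 1.5 times under all alternatives, at 30 to 41 in PBS, 29 to 39 in cNSF-HA and 28 to 41 in fNSF-HA cells. The median log2 change was -0.27 with edgeR, -0.38 with quantile normalization and -0.39 with the GC and length trend removed, also with the replicate block, in PBS cells (-0.35 to -0.32 with 1 library left out). In cNSF-HA cells it was -0.25 with edgeR and -0.27 with the trend removed, with or without the block (-0.32 to -0.27 with 1 library left out), and in fNSF-HA cells -0.28 with edgeR. With the trend removed, with or without the replicate block, values of genes named by rule that were called before or after the removal changed sign for TAF1D (0.11), RRP1 (-0.26), NOC2L (-0.13) and NOC4L (-0.39) in cNSF-HA cells and for GNL3 (0.034) in PBS cells. Over all 48 genes 17 of 144 values changed sign, among them PES1 in PBS (-0.24) and cNSF-HA (-0.21) and RRP12 in cNSF-HA cells (-0.14), then called as falls, and DDX10 in PBS cells (0.26), then called as a rise. Between cNSF-HA and fNSF-HA after tBHP 4 genes were called with DESeq2 and 0 to 21 with 1 library left out, between fNSF-HA and PBS 1 with DESeq2 and 0 to 16 with 1 library left out, and without tBHP 5 between both HA groups when the compared groups alone were fitted. The cause of these differences was not tested. Correlations between the deviations of same-numbered libraries ran from -0.12 to 0.33, the largest between PBS and fNSF-HA replicate 2 after tBHP. They were not all over 0.1, so the numbers were not taken as pairs. With a replicate block 33, 32 and 37 genes were called in PBS, cNSF-HA and fNSF-HA cells. All 66 values of the genes named by rule in these responses then kept their direction and side of the threshold. Of the 396 such values with 1 library left out, 31 lost a call and 3 gained one. Of those called before or after, 0 changed sign. The other 362 kept their side of the threshold, and changes of sign among values not called were not counted.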
